A study of Mus musculus with 58 samples.

Results

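The genes described here were 45 components of DNA repair and of the DNA damage checkpoint, out of 20018 genes named on the array. They were chosen by name and by role: 14 act in nucleotide excision repair, 6 in translesion synthesis, 10 in recombination and crosslink repair, 5 in the damage checkpoint, 2 in end joining, 6 in base excision repair, and 2 in mismatch repair or direct reversal. Each gene was read from its brightest probe. Values are log2 ratios of the tissue RNA (Cy5) over a universal mouse reference RNA pooled from cell lines (Cy3), so a value of 0 means equal signal in tissue and reference, and only values of 1 gene were compared with each other.

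Adult male Muta™Mouse, a transgenic strain that carries a bacterial reporter gene for scoring mutations, received indeno(1,2,3-cd)pyrene (IP) by oral gavage for 28 days. IP is a polycyclic aromatic hydrocarbon, and all groups, controls included, carry the transgene and received olive oil, the vehicle. The vehicle group had a dose of 0, and the others took 12.5 or 25 or 50 mg/kg-bw/day, in mice of about 13 weeks of age. Tissues were taken 72 h after the last dose. Lung was measured in 5 mice in each of 4 groups, and liver and forestomach in 4 vehicle mice and 5 mice at each dose, which gave 58 arrays. Vehicle mouse 4 has lung values only; its liver and forestomach were not analysed here. The labels number 5 vehicle lung mice where the study's methods give 4 for a vehicle group.

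Polycyclic aromatic hydrocarbons are oxidised to diol epoxides that bind DNA bases and form bulky adducts. Nucleotide excision repair recognises the bent helix through XPC with RAD23B and the UV-damage binding proteins, or at a stalled RNA polymerase through the Cockayne syndrome proteins, opens it with the TFIIH helicases and cuts out the damaged strand. Adducts that reach a replication fork can be bypassed by translesion polymerases, among which polymerase kappa is known for accurate bypass of such adducts at guanine, and the ATR kinase signals the stalled fork. Several repair genes are known targets of p53, and the aryl hydrocarbon receptor (AhR), which binds many of these hydrocarbons, acts through promoter elements with the core letters GCGTG.

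The search covered 43 promoters of 38 of the 45 genes, taken from the RefSeq promoter table (build GRCm38.p6). Any promoters of Ercc3 and Poli were left out before the search. In the 250 bases before each start, the core GCGTG was searched on both strands, as GCGTG or as CACGC. At least 1 match stood in 21 of the 43 promoters (48.8%), of 21 genes, beside 28.2% of all 32851 promoters in the table, and no account was taken of base composition. The rule that left out Ercc3 and Poli was not applied to all promoters, so these percentages were not counted alike. Promoters are printed here with the matches in capitals for the genes that were higher in lung at 50 mg/kg-bw/day at an unadjusted p under 0.05 (Polk, Brca2, Atr, Msh6 and Ercc2) and for Mgmt, which had the largest difference between tissues. The stretches are Polk chr13:96542580-96542829 (minus strand), Brca2 chr5:150522371-150522620, Atr chr9:95857347-95857596, Msh6 chr17:87974800-87975049, Ercc2 chr7:19381767-19382016 and Mgmt chr7:136894336-136894585 (plus strand).
Polk: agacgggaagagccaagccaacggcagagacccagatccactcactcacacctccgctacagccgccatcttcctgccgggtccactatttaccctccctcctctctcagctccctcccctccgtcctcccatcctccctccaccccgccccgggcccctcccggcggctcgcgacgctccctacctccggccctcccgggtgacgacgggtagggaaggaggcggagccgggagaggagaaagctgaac
Brca2: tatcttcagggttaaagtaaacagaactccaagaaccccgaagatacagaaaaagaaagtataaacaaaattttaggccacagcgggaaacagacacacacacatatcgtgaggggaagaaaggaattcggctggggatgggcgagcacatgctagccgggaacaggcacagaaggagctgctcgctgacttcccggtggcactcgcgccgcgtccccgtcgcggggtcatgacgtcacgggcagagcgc
Atr: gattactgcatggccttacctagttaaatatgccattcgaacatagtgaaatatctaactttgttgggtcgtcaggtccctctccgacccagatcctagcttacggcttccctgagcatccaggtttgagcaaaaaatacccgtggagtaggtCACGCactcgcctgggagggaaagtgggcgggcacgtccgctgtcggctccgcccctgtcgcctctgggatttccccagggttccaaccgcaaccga
Msh6: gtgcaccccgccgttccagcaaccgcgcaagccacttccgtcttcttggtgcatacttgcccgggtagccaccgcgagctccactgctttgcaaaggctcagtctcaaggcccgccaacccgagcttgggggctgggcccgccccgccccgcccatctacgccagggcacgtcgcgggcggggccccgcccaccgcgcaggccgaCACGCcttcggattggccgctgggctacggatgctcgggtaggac
Ercc2: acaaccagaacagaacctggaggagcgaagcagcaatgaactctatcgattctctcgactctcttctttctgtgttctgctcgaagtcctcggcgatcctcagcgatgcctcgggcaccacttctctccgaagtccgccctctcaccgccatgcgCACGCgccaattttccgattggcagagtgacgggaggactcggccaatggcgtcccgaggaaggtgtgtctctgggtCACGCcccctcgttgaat
Mgmt: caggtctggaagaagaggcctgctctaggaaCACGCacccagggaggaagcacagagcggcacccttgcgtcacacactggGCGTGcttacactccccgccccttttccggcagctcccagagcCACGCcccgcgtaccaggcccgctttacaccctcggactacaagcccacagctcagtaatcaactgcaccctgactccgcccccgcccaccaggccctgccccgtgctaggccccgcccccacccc
The Brca2 promoter held no match, the Atr and Msh6 promoters 1 each and the Ercc2 promoter 2. The table lists 2 promoters each for Polk and Mgmt. Neither Polk promoter held a match, and of the Mgmt promoters the one printed held 3 and the other 0. A match is a description of the letters and not evidence of a binding site.

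Between 53.0% and 90.7% of the probes on a lung array were well above background, 37.6% to 78.9% in liver and 43.0% to 85.9% in forestomach. Of the 45 genes, 39 were above background on all 20 lung arrays, and 32 were on all 19 arrays of liver and of forestomach. Brca1 and Fancd2 were above background on 3 and 1 lung arrays, and on few arrays of the other tissues, so their ratios are largely background. Fanci was above background on none of the liver arrays, so its liver ratios are background. It was above background on 15 of 20 lung and 18 of 19 forestomach arrays. Lung and forestomach arrays shared 5 slides, with 1 mouse of each dose per slide in lung. Liver lay on 3 other slides, and its arrays were read by another version of the scanner software, so tissue and slide cannot be told apart there. Each dose had its own array column on the slides, 2 liver arrays aside, so that dose and column cannot be told apart. The 6 lung epithelium, 6 hepatocyte and 6 squamous keratin markers were each highest in lung, liver and forestomach. RNA came from whole tissue, in which fewer cells of a type and less RNA per cell cannot be told apart.

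IP left no repair or checkpoint gene past both thresholds, a 1.5-fold change and an adjusted p under 0.05. The count was 0 of 45 in lung, liver and forestomach, at each of the 3 doses and in the linear trend over dose (limma with Benjamini-Hochberg adjustment over all probes). Among all 20018 genes the percentage past both thresholds was itself small: 0 at 12.5, 0.0150 at 25 and 0.150 at 50 mg/kg-bw/day in lung, 0.140 in the lung trend, and 0 at every dose and in the trend in liver and forestomach. The absence of a call was therefore shared with nearly all genes. By the brightest probes the smallest adjusted p of a member was 0.335, for Polk in the lung trend. A second Xpa probe gave 0.25 log2 in lung at 50 mg/kg-bw/day (adjusted p = 0.226), also not past the thresholds. The median log2 change of the 45 genes at 50 mg/kg-bw/day was 0.02 for lung, -0.03 for liver and 0.03 for forestomach, against 0.01, -0.01 and 0.01 over all genes.

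The intervals show how large a change could have been missed in genes above background. In lung 2, in liver 9 and in forestomach 5 of the 45 genes were above background on under 50% of the arrays. They are kept in the counts below, but a narrow interval for them does not bound a change in RNA. At 50 mg/kg-bw/day the 95% confidence interval lay inside a 1.5-fold change in either direction for 39 of 45 lung genes, 31 liver genes and 42 forestomach genes. At the lowest dose it did so for 42 genes in lung, for 34 in liver and for 40 in forestomach, and at the middle dose for 42, 32 and 42. The widest interval in each tissue was that of Poli, the translesion polymerase iota.

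**Figure D1:**
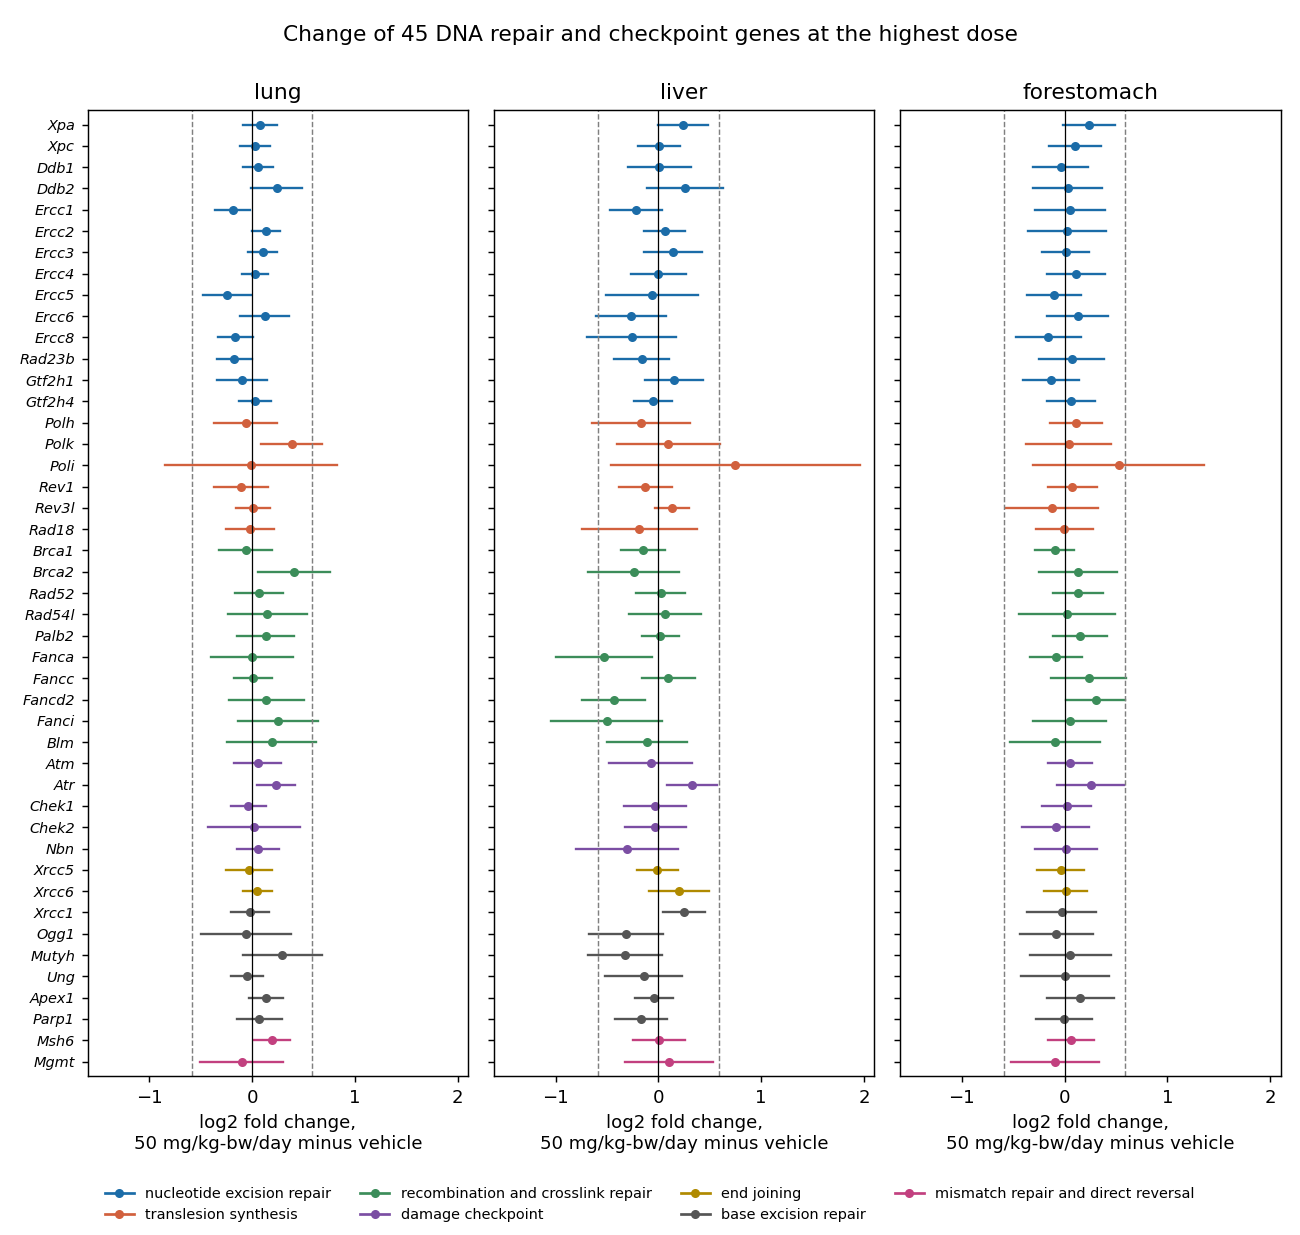
Log2 fold change of the 45 genes at 50 mg/kg-bw/day against vehicle in 3 tissues, with 95% confidence intervals from limma, coloured by role; dashed lines mark a 1.5-fold change. The interval lay between the dashed lines for 39 lung genes, 31 liver genes and 42 forestomach genes, and the widest was that of Poli.

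In lung at 50 mg/kg-bw/day, 5 genes were higher and 3 lower at an unadjusted p under 0.05, beside 8.07% and 4.59% of all genes. In this fit, which had no slide term, these shares were near the background, so the 8 genes are described by their values. Their adjusted p ran from 0.382 to 0.561. With slide as a block, 8 members were higher and 4 lower at this dose, beside 12.3% and 8.50% of all genes. At 25 mg/kg-bw/day that fit gave 10 and 2, beside 10.1% and 6.74%. In the trend it gave 11 and 3, beside 11.7% and 8.18%, and 0 members passed both thresholds. Some markers of other cells moved with dose in these lungs, and their part in the values was not tested. The mean log2 ratio of 6 B cell markers ran from -0.03 to 0.99 in vehicle mice and from 0.99 to 1.28 at 50 mg/kg-bw/day, with 0 of 6 past both thresholds. That of 6 heart muscle markers ran from 1.84 to 4.12 and from 0.33 to 2.75, with 0 of 6 past, and that of 6 fat cell markers from 1.41 to 3.98 and from 1.01 to 2.06, with 1 of 6 past.

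Of the translesion polymerases, Polk had the largest difference. The 5 vehicle mice had log2 ratios of -0.78, -0.45, -0.42, -0.16 and -0.14, and the 5 mice at 50 mg/kg-bw/day had -0.18, -0.09, -0.03, 0.07 and 0.18. The groups overlapped only in that the lowest treated mouse lay below the 2 highest vehicle mice. The difference was 0.38 log2 (SE 0.14, adjusted p = 0.382), and the group means were -0.39 in vehicle, then -0.26, -0.15 and -0.01 in order of dose. A second Polk probe, above background on 38 of 58 arrays, gave 0.07 at this dose. With slide as a block the adjusted p of Polk was 0.0880. The other 5 translesion genes lay between -0.11 and 0.01: REV1, the REV3L subunit of polymerase zeta, polymerases eta and iota, and RAD18, the ligase that marks PCNA for bypass.

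In recombination and crosslink repair, 8 of 10 genes were above and 2 below vehicle, with a median of 0.13 log2. Brca2, a mediator of homologous recombination, had log2 ratios of -3.25, -3.11, -3.03, -2.91 and -2.61 in vehicle mice and -2.87, -2.85, -2.59, -2.48 and -2.09 at 50 mg/kg-bw/day. Of the treated mice, 3 lay above every vehicle mouse and 2 within the vehicle range, and on each of the 5 slides the treated mouse was above the vehicle mouse. The difference was 0.41 log2 (SE 0.17, adjusted p = 0.469). With slide as a block the same difference had an SE of 0.09 and an adjusted p of 0.0240, still under 1.5-fold, while the count over all genes rose from 30 to 108. Proliferation markers were also higher in these lungs: 3 of 18 passed both thresholds (Mki67, Birc5 and Ccna2), and their mean log2 ratio ran from -2.72 to -2.19, against -2.99 to -2.55 in vehicle. Their part in the Brca2 value was not tested.

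Of the 5 checkpoint genes, Atr, the kinase activated by stalled forks, was at -1.50, -1.23, -1.18, -1.12 and -1.09 in vehicle lung and at -1.22, -1.04, -0.98, -0.94 and -0.79 at 50 mg/kg-bw/day. Only 1 treated mouse lay within the vehicle range. The difference was 0.23 log2 (SE 0.09, adjusted p = 0.385). Atm, Chek1, Chek2 and Nbn lay within 0.06 log2 of vehicle. In mismatch repair, Msh6, which takes part in recognising mispaired bases, was at -2.49, -2.38, -2.23, -2.19 and -2.07 in vehicle and at -2.13, -2.10, -2.08, -2.08 and -1.99 at 50 mg/kg-bw/day. The treated mice all lay near the top of the vehicle range, and the difference was 0.19 log2 (SE 0.09, adjusted p = 0.512).

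The 14 excision repair genes went both ways, with 9 above and 5 below vehicle and a median of 0.02 log2. Ercc2, the XPD helicase of TFIIH, had -0.57, -0.46, -0.45, -0.36 and -0.36 in vehicle and -0.35, -0.34, -0.33, -0.28 and -0.22 at 50 mg/kg-bw/day. The groups did not overlap, and the 2-sided exact permutation p was 0.00794, the smallest that 5 against 5 allows. The difference was small, 0.14 log2 (SE 0.06, adjusted p = 0.561). Among all genes, 2.38% likewise had every treated mouse above every vehicle mouse.

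The lower genes act in recognition and incision. Ercc1, the partner of the XPF nuclease, was at -1.06, -1.05, -1.01, -0.97 and -0.77 in vehicle and at -1.28, -1.28, -1.13, -1.07 and -1.06 at 50 mg/kg-bw/day. Of the treated mice 4 lay below every vehicle mouse, with a difference of -0.19 log2 (SE 0.08, adjusted p = 0.487). Its means were -0.97 in vehicle and -1.09, -0.95 and -1.16 in order of dose. Ercc5, the XPG nuclease, was at 0.38, 0.38, 0.44, 0.60 and 0.68 in vehicle and at -0.03, 0.19, 0.23, 0.38 and 0.49 in treated mice, a difference of -0.25 log2 (SE 0.11). Rad23b, which stabilises XPC, differed by -0.17 log2 (SE 0.08), with 1 treated mouse at -1.39 and the other 4 from -1.14 to -0.94. Ercc8, the Cockayne syndrome A protein, entered by the trend, at -0.16 log2 over the dose range (SE 0.08, adjusted p = 0.560). With arrays centred on their medians, which moved all genes by a median of 0.12 log2 at this dose, Ercc1, Rad23b and the Ercc8 trend turned to 0.05, 0.08 and 0.02.

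At 25 mg/kg-bw/day Apex1, the nuclease that cuts at abasic sites, had all 5 treated lungs, from -1.91 to -1.65, above the 5 vehicle lungs, from -2.04 to -1.91. It was picked for this pattern, which 1.68% of all genes shared. The difference was 0.17 log2 (adjusted p = 0.725), and at 50 mg/kg-bw/day, where 1 treated mouse fell within the vehicle range, it was 0.13.

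**Figure D2:**
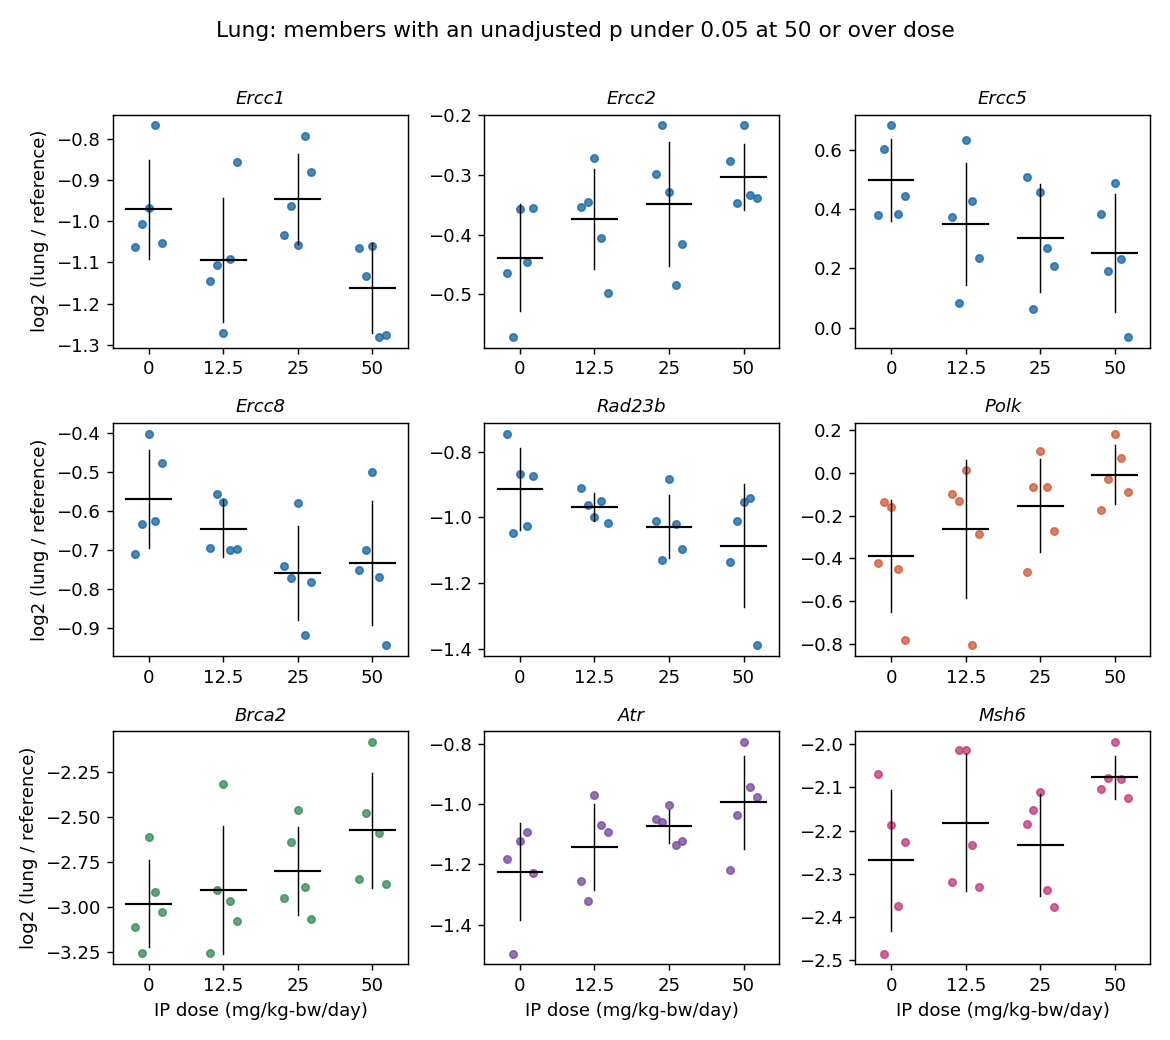
Log2 ratios in lung by IP dose (mg/kg-bw/day, 5 mice per group) of the 9 genes with an unadjusted p under 0.05 at 50 mg/kg-bw/day or in the trend; points are mice, horizontal lines means and vertical lines 1 SD. Polk, Brca2, Atr, Msh6 and Ercc2 were higher at the highest dose and Ercc1, Ercc5, Ercc8 and Rad23b lower, each by less than 1.5-fold.

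In liver at 50 mg/kg-bw/day, 2 genes were higher and 2 lower at an unadjusted p under 0.05, beside 3.36% and 5.01% of all genes, so that these shares too were near the background. Atr was at -1.48, -1.28, -1.14 and -0.96 in the 4 vehicle livers and at -1.11, -1.04, -0.83, -0.74 and -0.72 at 50 mg/kg-bw/day. The difference, 0.33 log2 (SE 0.12, adjusted p = 0.715), ran the same way as in lung, in other slides but the same mice. Xrcc1, the scaffold of single-strand break repair, differed by 0.25 log2 (SE 0.10, adjusted p = 0.716), with -2.05, -1.83, -1.82 and -1.80 in vehicle and -1.83, -1.72, -1.61, -1.49 and -1.47 in treated mice. Fanca, of the crosslink repair core complex, differed by -0.53 log2 (SE 0.22), with 1 treated mouse at -3.93 that was not above background, and turned to 0.19 with arrays centred on their medians. Fancd2, its substrate, differed by -0.44 log2, but none of its values in these groups was above background, and the scanner software's ratio gave 0.10.

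In forestomach at 50 mg/kg-bw/day, 1 gene was higher and 0 lower at an unadjusted p under 0.05, beside 2.66% and 1.58% of all genes. The gene was Fancd2, at 0.30 log2 (SE 0.14, adjusted p = 0.9999), with 2 of 5 treated and 0 of 4 vehicle values above background. Atr passed an unadjusted p only in the trend, at 0.31 log2 (SE 0.15), from a mean of -1.59 in vehicle to -1.34 at the highest dose. Glandular stomach markers varied widely in these samples, from a mean log2 ratio of 0.80 to 6.34 among the vehicle mice, and their part in the forestomach values was not tested.

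**Figure D3:**
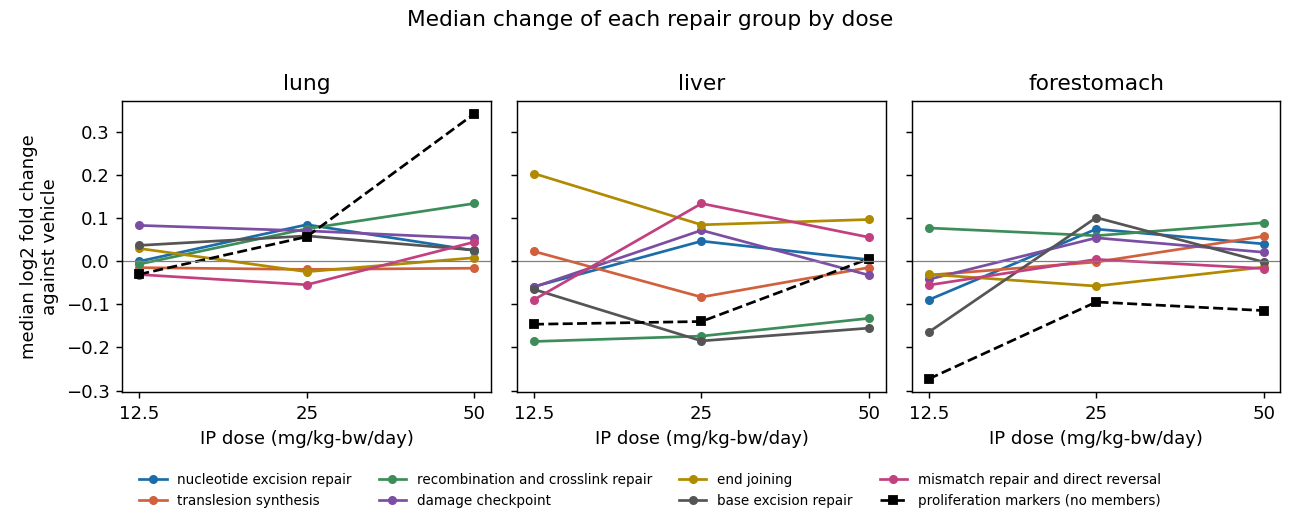
Median log2 fold change against vehicle of each repair group at each dose (mg/kg-bw/day, evenly spaced) in 3 tissues, with 18 proliferation markers, which hold no member, as a dashed line; groups hold 2 to 14 genes and all 3 doses share the vehicle mice. The repair groups lay between -0.19 (recombination, liver) and 0.20 (end joining, liver), while proliferation markers reached 0.34 in lung at 50 mg/kg-bw/day.

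Atr was the single gene with an unadjusted p under 0.05 in more than 1 tissue in the same direction at 50 mg/kg-bw/day, in lung and liver. Whether the response to 50 mg/kg-bw/day differed between tissues was tested directly. For lung minus liver 0 of 45 members passed an adjusted p of 0.05, where 0.0350% of all genes did, and for lung minus forestomach 0 of 45, where 0.0300% did. At an unadjusted p under 0.05 there were 4 members for lung minus liver, beside 7.77% of all genes, and 0 for lung minus forestomach, beside 3.45%. The 4 were Brca2 (0.65 log2), Mutyh (0.62), Fanci and Fancd2, of which Fanci was above background on 0 of 19 liver arrays and Fancd2 on 2, so that no size is given for them. The smallest adjusted p was 0.614.

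Another 92 genes of the same pathways were measured, of 93 listed, and 0 passed both thresholds in any tissue. In lung at 50 mg/kg-bw/day their median was 0.07 log2, with 15 higher and 0 lower at an unadjusted p under 0.05, where 8.07% and 4.59% of all genes were. Atrip, the partner of ATR, had an adjusted p of 0.0249 at 0.34 log2, under 1.5-fold. In the same lungs the p53 targets Bax and Plk2 were higher by 0.79 and 0.75 log2, and the AhR targets Cyp1b1 and Ahrr by 3.64 and 2.50 log2, so that 2 of 20 and 2 of 8 genes of these lists passed both thresholds, beside 0.150% of all genes.

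The repair genes differed far more between tissues than with IP. In vehicle mice 16 of the 45 genes passed both thresholds in at least 1 pair of tissues, 5 of them in all 3 pairs (Mgmt, Apex1, Ung, Ercc1 and Xpc), and 29 passed in none. Shares of all genes are given by pair only, so these counts over pairs are not read as a trait of the 45 genes. Between lung and liver 6 genes were higher in lung and 9 lower, beside 25.5% and 16.6% of all genes. In forestomach against lung 8 were higher and 2 lower, beside 14.5% and 17.3%, and in forestomach against liver 3 were higher and 5 lower, beside 22.0% and 15.6%. The share of members called was thus near or below that of all genes in each pair. The vehicle forestomach samples were not alike in glandular stomach markers. Their mean log2 ratio was 0.80 in mouse 1 and 6.25, 6.34 and 6.31 in mice 2, 3 and 5. The part of glandular tissue in the forestomach levels and calls given here was not tested. The counts depended on scaling: on the Cy5 signal alone they were 0 and 10, 7 and 1, and 2 and 7, and with arrays centred on their medians 25 and 1, 0 and 12, and 10 and 2, a scaling that moved the median of all genes by 0.43 log2 between lung and liver.

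Mgmt, which removes alkyl groups from guanine directly, had the largest difference of the 45 genes. Its log2 ratios were 0.56, 0.62, 0.79 and 1.23 in vehicle liver, -0.86, -0.81, -0.48 and -0.32 in forestomach, and -2.70, -2.38, -2.35, -1.88 and -1.77 in lung. No tissues overlapped. Liver was above lung by 3.02 log2 (SE 0.21, 8.09-fold, adjusted p = 1.4e-17), above forestomach by 1.42 (adjusted p = 6.9e-07), and forestomach above lung by 1.60 (adjusted p = 1.9e-08). Both comparisons with liver passed under 13 of 13 other settings, and forestomach against lung under 12, all but median-centring.

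Apex1 and Ung, of base excision repair, were also highest in liver, for Ung not with arrays centred on their medians. Apex1 was at -0.54 to -0.24 in liver, -1.43 to -0.56 in forestomach and -2.04 to -1.91 in lung, without overlap. Liver was 2.95-fold above lung (1.56 log2, SE 0.11) and 1.64-fold above forestomach, and both passed under 12 of 13 other settings. Ung, the uracil glycosylase, had means of 2.50 in liver, 1.77 in lung and 1.11 in forestomach, and the difference of forestomach from liver, -1.39 log2 (SE 0.18, adjusted p = 3.1e-09), passed under 13 of 13 other settings. That of forestomach from lung, -0.67 log2, did not pass without forestomach mouse 1 (-0.49) or on the Cy5 signal alone (-0.46). With arrays centred on their medians the lung and liver levels of Ung lay together (a difference of -0.0083 log2, adjusted p = 0.984). Xrcc1 went the other way, at -2.05 to -1.80 in liver against -1.12 to -0.62 in lung and -1.04 to -0.77 in forestomach.

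Excision repair factors did not share an order. Xpc, the damage sensor, was highest in lung at 1.04 to 1.25, then liver at 0.42 to 0.57 and forestomach at -0.40 to 0.07, and forestomach was below lung by 1.32 log2 (SE 0.10, adjusted p = 1.7e-16) under 13 of 13 other settings. Rad23b, its partner, was highest in liver, where lung was lower by 1.32 log2, although a second probe gave a smaller difference of -0.64. With arrays centred on their medians the lung-to-liver difference of Rad23b was -0.18 log2 and did not pass. Ercc1 was lowest in liver at -2.26 to -1.98, against -1.06 to -0.77 in lung and -0.62 to -0.07 in forestomach. Forestomach was above liver by 1.80 log2 (SE 0.14, 3.47-fold), and this too passed under 13 of 13 other settings. Its excess in forestomach over lung, 0.63 log2, did not pass without forestomach mouse 1 (0.53) and turned to -0.045 with arrays centred on their medians. Gtf2h1, the p62 subunit of TFIIH, was likewise below the other tissues in liver, at -0.67 to -0.25 against -0.04 to 0.47 in lung, but the lung difference did not pass without lung mouse 3 (0.58) or liver mouse 1 (0.56). Ddb2, the UV-damage binding subunit, was higher in lung than in liver by 0.60 log2, just past 1.5-fold, and did not pass in 4 of 9 fits that left out 1 mouse, lung mice 3, 4 or 5 or liver mouse 2, with values of 0.47 to 0.58.

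Xpa, the factor that verifies damage, did not differ between tissues by its brightest probe, while its second probe put lung below liver by 0.79 log2 (adjusted p = 1.8e-07), so its probes disagree. On the Cy5 signal alone the lung excesses over liver of Ercc1, Xrcc1, Xpc, Gtf2h1, Rev3l and Ddb2 shrank below the thresholds, to 0.50, 0.35, 0.14, 0.09, 0.42 and 0.28 log2.

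Both Ku subunits, which hold broken ends for joining, were lower in lung than in liver, Xrcc5 by 0.84 and Xrcc6 by 0.74 log2, and Xrcc6 was also lower in lung than in forestomach by 0.99. In recombination, Blm, the Bloom helicase, was lower in lung than in forestomach by 1.02 log2 (SE 0.22), and Brca2 lower in lung than in liver by 0.93. With arrays centred on their medians the lung-to-liver differences of Brca2, Blm, Xrcc5 and Xrcc6 turned to 0.21, 0.46, 0.31 and 0.18, and that of Fanci to 0.39. The excesses of Xrcc6 and Blm in forestomach over lung shrank to 0.39 and 0.34 log2 under that setting and did not pass. Fanci passed the thresholds between lung and liver, but it was above background on 0 of 4 liver arrays and 2 of 5 lung arrays, and no fold is given. Rad54l, also of recombination, passed as higher in forestomach than in lung, with vehicle means of -1.65 and -2.32. It passed under only 10 of 13 other settings and not without forestomach mouse 1 (0.52). Rev3l, of polymerase zeta, was higher in lung than in liver by 0.67 log2. None of the 5 checkpoint genes passed in any pair. Chek1 was above background on 20 of 20 lung arrays, but on 2 of 19 in liver and 6 of 19 in forestomach. Chek2 was above background on 5 of 19 liver arrays, so for both genes the lack of a call is limited by signal.

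**Figure D4:**
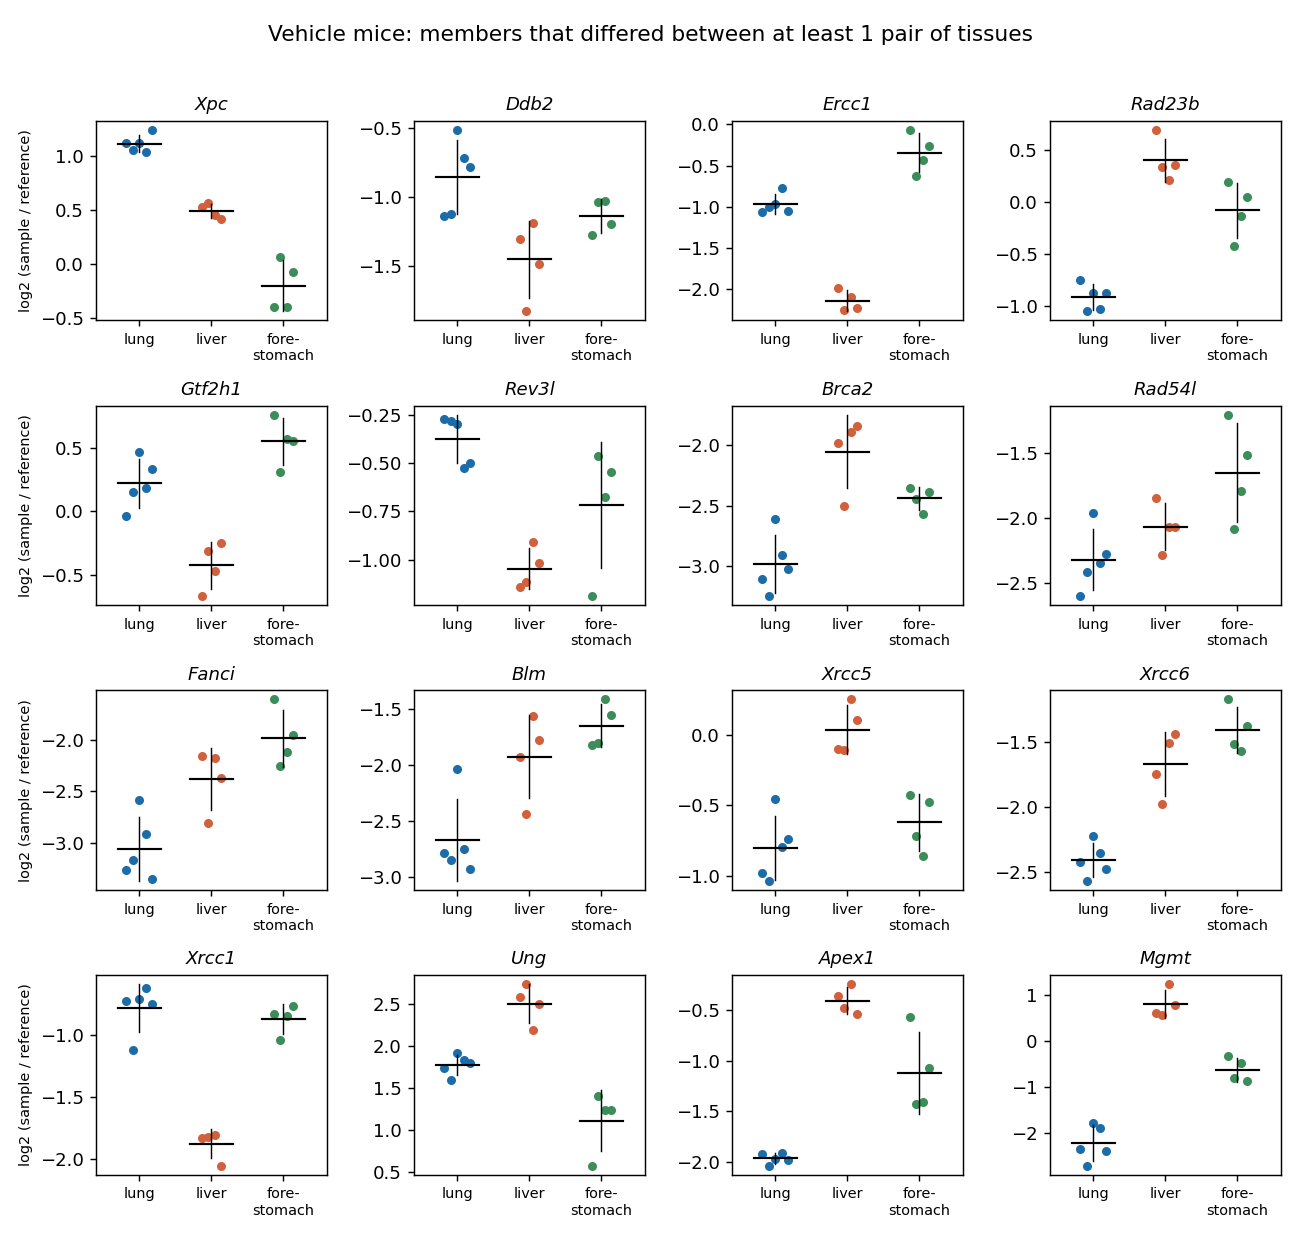
Log2 ratios of the 16 genes that passed both thresholds between at least 1 pair of tissues, in vehicle lung (5 mice), liver and forestomach (4 mice each); points are mice, horizontal lines means and vertical lines 1 SD. Mgmt, Apex1 and Ung were highest in liver, although median-centring brought the lung-to-liver difference of Ung to -0.0083 log2, Ercc1 was lowest there, and Xpc was highest in lung.

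Because the same mice gave all 3 tissues, each mouse's difference from the mean of its dose group could be followed across them in 19 mice. For Mgmt the differences in lung and liver had the same sign in 18 of 19 mice, and 15 of 19 had 1 sign in all 3 tissues. Mice 3, 8, 11, 14, 16 and 18, which belong to all 4 dose groups, lay above their group mean in every tissue. Pearson's r was 0.77 between lung and liver, 0.66 between lung and forestomach and 0.54 between liver and forestomach (Spearman's rho 0.76, 0.70 and 0.54). For Polk, r was 0.76, 0.70 and 0.44 (rho 0.77, 0.64 and 0.35). Mouse 9, at 12.5 mg/kg-bw/day, had the lowest Polk difference of all mice in every tissue, -0.55 in lung, -0.81 in liver and -0.51 in forestomach.

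These correlations are given as descriptions, with no p, since Mgmt and Polk were picked as the highest of the 45 genes. The median over all genes was 0.07, 0.16 and 0.02 for the same pairs, and over the 45 genes 0.23, 0.31 and 0.18. An r of at least 0.4 in all 3 pairs was found for 3 of 45 members (Mgmt, Polk and Blm) and for 1.34% of all genes. Lung and forestomach arrays shared slides, and mice on 1 lung slide were mostly on 1 liver slide. With slide means removed, r was 0.63, 0.65 and 0.49 for Mgmt and 0.48, 0.80 and 0.21 for Polk, while Blm fell to 1.2e-05 between lung and liver. Without the 2 mice farthest from the median, r was 0.73, 0.68 and 0.54 for Mgmt and 0.70, 0.62 and 0.32 for Polk. The second Polk probe gave 0.03, -0.18 and -0.21.

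**Figure D5:**
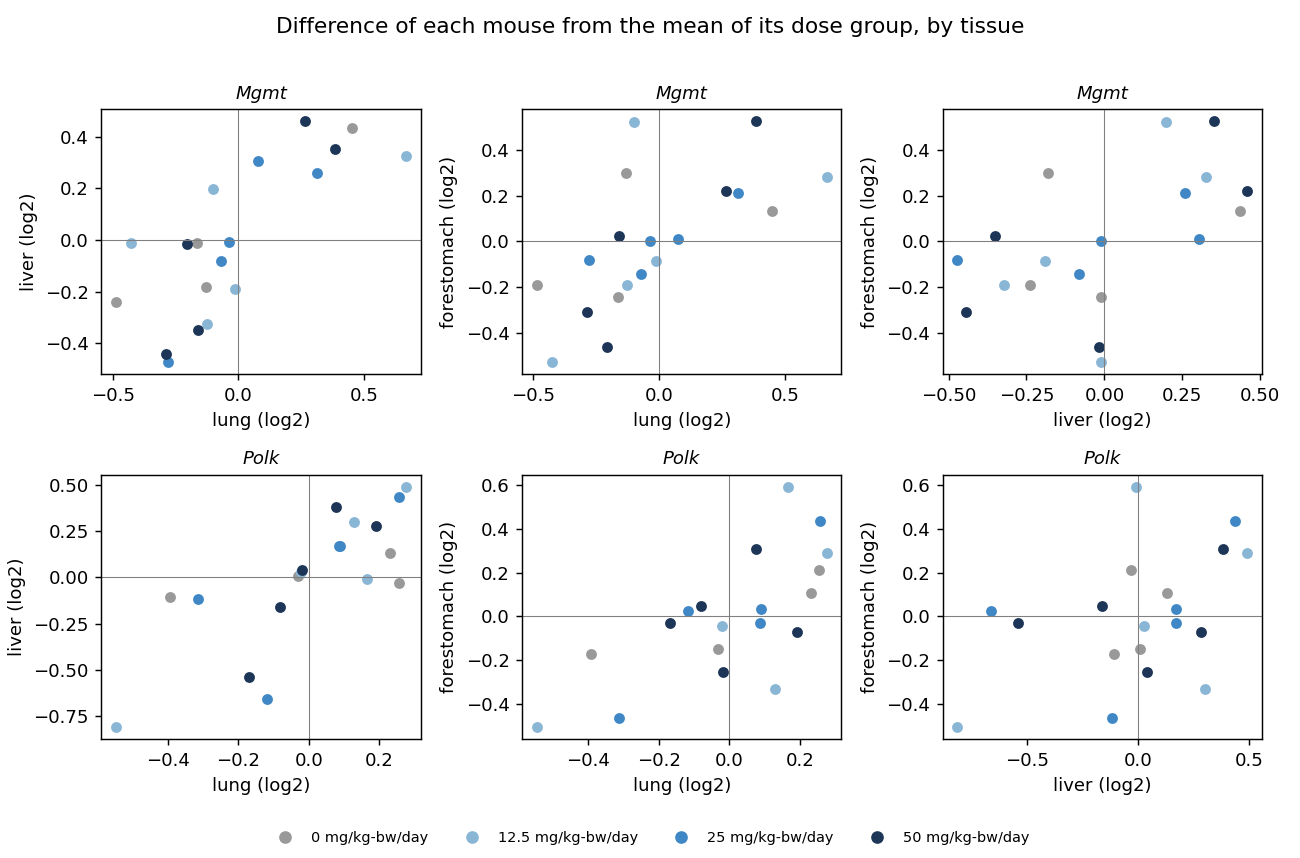
Difference of each of 19 mice from the mean of its dose group (log2) for Mgmt and Polk, 1 tissue against another, coloured by IP dose. For Mgmt 18 of 19 mice lay on the same side of 0 in lung and liver, and mouse 9 was the lowest for Polk in each tissue.

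Poli stood apart in its spread. Its SD within dose groups was 0.72 log2 in lung, 0.96 in liver and 0.65 in forestomach, where the median member had 0.18, 0.21 and 0.22. In lung 92.0% and in forestomach 96.3% of this spread lay between slides, against a median of 64.1% and 36.9% over the members and 50.4% and 29.6% over all genes. On the third slide all 4 lung values lay between -1.31 and -0.81, and on the fifth all 4 lay between -3.20 and -2.89, whatever the dose, and the forestomach arrays on those slides ran from -1.13 to -0.82 and from -3.11 to -2.60. In liver only 11.6% lay between slides, and mice 9, 15, 16 and 20 had values from -0.11 to 0.13 while 14 of the other 15 lay between -2.45 and -1.90. All Poli values were above background. The mean of Poli at 50 mg/kg-bw/day in liver, 0.75 log2 above vehicle (SE 0.58), included mice 16 and 20.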

How the data were processed

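RNA of lung, liver and forestomach was hybridised to 58 two-colour Agilent arrays, tissue RNA in Cy5 and reference RNA in Cy3. Per the file headers, intensities are median spot signals from Feature Extraction 10.7.3.1 (lung, forestomach) or 11.0.1.1 (liver), and the log10 ratio is that software's processed value. The authors' log2 ratios had been LOWESS-normalized from median signals, and served as an alternative for lung and forestomach; in liver their probe names did not match the scanner values (r from -0.007 to 0.007). The number of columns from other samples was 0.

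Here, median signals were loess-normalized within each array without background subtraction, control and outlier spots left out, and log2 Cy5 over Cy3 was tested with limma 3.58.1 (R 4.3.3, statmod 1.5.0). Calls needed a Benjamini-Hochberg adjusted p under 0.05 over all probes and a 1.5-fold change, after the thresholds in the study's methods. Doses were compared within a tissue, and tissues and differences between them in a joint fit. Exact permutation tests were 2-sided. A single value's p measures the spread between mice together with that between their slides, since the main fit had no slide term. In lung a median of 64.1% of the members' spread within dose groups lay between slides. The number of arrays limits the precision. The steps were tested on simulated data with independent noise on each array and no slide differences, so that test does not cover the spread between slides.

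Genes with an unadjusted p under 0.05 at 50 mg/kg-bw/day or in the trend, and genes called between tissues, were named, others after their values were seen. Of the further repair genes, Atrip was named for its adjusted p alone; another gene is not reported here. Members and lists were chosen with earlier results of these data known. Mouse numbers in the titles pair tissues of an animal: same-numbered samples deviated together by a median r of 0.045 (lung and liver), 0.154 (lung and forestomach, which share slides) and 0.016 (liver and forestomach). The highest r between arrays was 0.982, and no array was a copy. Alternatives covered background, normalization, channel, dim and outlier spots, probes, moderation, slide and mouse blocks, the methods' Fs test, thresholds and left-out mice. Slide means removed and 2 mice left out in the same-mouse correlations were added after seeing the data.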

Additional observations from a re-analysis of the deposited data

Results flagged for a closer look

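In 4 of 104 groups of 4 or 5 mice, for the genes named, 1 mouse lay far from the rest by Dixon's criterion, where chance gives about 1 in 20. The Xrcc1 log2 ratio of vehicle mouse 2 in lung was -1.12, against -0.76 to -0.62 in the other 4. That of vehicle mouse 5 in liver was -2.05, against -1.83 to -1.80 in the other 3. The Blm log2 ratio of vehicle mouse 3 in lung was -2.03, against -2.93 to -2.75. The Fancd2 log2 ratio of vehicle mouse 2 in liver was -0.99, against -0.82 to -0.79, none well above background.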

How the results depend on the processing

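Members past both thresholds with IP stayed at 0 in each tissue, dose and trend, and in the differences between tissues, under every setting tried that kept both thresholds, and without any 1 mouse (0 to 0). With an unadjusted p under 0.05 instead, counts of the 45 (with the share of all genes) were 3 in lung at 25 (9.65%), 8 at 50 (12.7%) and 8 in the trend (12.5%); in liver 1 at 12.5 (2.76%), 4 at 25 (4.8%), 4 at 50 (8.36%) and 4 in the trend (8.22%); in forestomach 1 at 12.5 (4.5%), 1 at 50 (4.25%) and 2 in the trend (4.78%); and 4 for the difference between lung and liver (7.77%). Between vehicle tissues that threshold gave 27 for lung and liver (58.5%), 19 for forestomach and lung (52.4%), and 20 for forestomach and liver (53.3%), where both thresholds gave 15, 10 and 8; these follow from the looser threshold. Median-centring gave 26 for lung and liver, and the scanner software's ratio 15 for forestomach and liver; the cause was not tested. Leaving out 1 mouse gave 13 to 16, 7 to 12 and 7 to 9.

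Signs reversed under median-centring for Brca2 (0.21), Xrcc5 (0.31), Blm (0.46), Xrcc6 (0.18) and Fanci (0.39) between lung and liver, Ercc1 between forestomach and lung (-0.045), Ercc1 (0.053) and Rad23b (0.084) in lung at 50, the Ercc8 lung trend (0.023) and Fanca in liver at 50 (0.19), and with the scanner's ratio for Fancd2 in liver at 50 (0.10); the cause was not tested. Mouse number as a replicate block (consensus correlation 0.0458) left the tissue counts at 6 higher and 9 lower, 8 and 2, and 3 and 5, and as a fixed block in 4 mice at 5 and 9, 8 and 2, and 3 and 5. Dose groups share no mouse numbers, so doses could be paired by slide alone. Slide as a block gave Brca2 in lung an adjusted p of 0.0240 at 50 and 0.0147 in the trend, below 1.5-fold. Genes near background, such as Fancd2, Brca1 and, in liver, Fanci, are limited by signal.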
